A study of Mus musculus with 81 samples.

Results

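The nuclear genes for the subunits of oxidative phosphorylation were followed through the RNA sequencing of a mouse hybridoma mature T cell line. The genes were taken by symbol (Nduf, Uqcr, Cox, Atp5 and Sdh names) from a table of raw read counts for 24391 gene symbols, and kept where the mean over the libraries reached 5 CPM, the counts of a gene scaled to the library total. Of 92 symbols that match, 86 were kept: 36 of complex I, 4 of complex II, 8 of complex III, 14 of complex IV, 15 of ATP synthase (complex V) and 9 named assembly or coupling factors (Ndufaf1 to Ndufaf7, Atp5s and Atp5sl). The lowest gene kept was Cox7a1 at 9.90 CPM and the highest gene left out reached 0.684 CPM. The 6 genes left out were Cox4i2, Cox6b2, Cox7b2, Cox8b, Cox8c and Ndufa4l2, most of them isoforms known from other tissues. The table holds no mitochondrially encoded subunit (0 symbols with the mt- prefix).

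Oxidative phosphorylation carries electrons from NADH and succinate through complexes I to IV to oxygen and uses the resulting proton gradient to make ATP at complex V. Most subunits come from nuclear genes with general promoters that are active in every tissue, and they are known for binding sites of NRF1, GABPA and YY1. A few subunits of complex IV have tissue isoforms: Cox6a2, Cox7a1 and Cox8b are the forms of heart and skeletal muscle, while Cox6a1, Cox7a2 and Cox8a are found in most cells. RBPJ is the DNA-binding protein of the Notch pathway, which represses targets with corepressors and activates them when it binds the Notch intracellular domain (NICD).

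The 41 libraries used come from 5 experiments, all in the hybridoma line. In the first, a CRISPR control line (Control sgRbpj) was set beside RBPJ-depleted lines sgRbpj 2-12 and sgRbpj 2-14, with 2 libraries each. In the second, cells carried NICD1-ER, an NICD1 that 4-hydroxytamoxifen (4-OHT) switches on. They received 1 µM 4-OHT for 4, 8 or 24 h, or ethanol for 24 h. Its 10 libraries hold only replicates 2 and 3 of both 24 h groups. Replicate 1 of those groups is labelled but was matched to no column. In the third, GFP was compared with GFP-KYOT2, an RBPJ partner, in its WT form and as the WWAA mutant that per the labels fails to bind RBPJ (3 libraries each). In the fourth, cells were kept for 24 h in 20 µg/ml DAPT, an inhibitor of gamma-secretase (GSI), or in DMSO (2 libraries each). In the last, BioNICD1 WT or its vector Biocontrol was put into Control sgRbpj cells and into sgRbpj cells, giving 4 groups of 3 libraries; the labels do not say which depleted line was used. The labels do not say whether lines are single clones or whether replicates are separate cultures, so p-values measure only the spread between these libraries.

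Library totals ran from 2377028 to 14244209 counts, the lowest in Control sgRbpj replicate 1. Rbpj itself fell by 1.85 ± 0.21 (log2 fold change ± SE, adjusted p = 0.00430) in the edited lines and by 2.24 ± 0.09 (adjusted p = 4.69e-09) in sgRbpj cells with Biocontrol. Of 11 T cell markers, 10 averaged at least 1 CPM (their sum 885 to 2419 CPM per library), against 0 of 5 B cell and 0 of 4 fibroblast markers (sums of at most 0.841 and 1.20 CPM). Among 5 myeloid markers found, 3 averaged at least 1 CPM (sum 8.40 to 88.9 CPM, Cd68 the highest), and of 4 erythroid markers 2 did (sum 0.741 to 14.98 CPM). Within the BioNICD1 experiment, sgRbpj+Biocontrol replicate 3 and sgRbpj+BioNICD1 WT replicate 1 stood apart from the others of their groups. Their chi-square per gene against those replicates was 23.1 to 52.6, against 1.70 to 12.3 for the other pairs of that experiment. Results of that experiment are therefore given with and without both libraries, a choice made after the data were seen. Every named call kept its direction and passed without them. More of all genes also passed in those fits (11.2 to 58.8% by comparison), so passing there adds little. Several of these calls were lost in other fits, as given below. With KYOT2, replicate 3 of each group differed from the other replicates by 13.3 to 26.2, against 1.94 to 6.64 between those. In these bulk libraries, less RNA per cell and fewer cells that express a gene cannot be told apart.

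Promoter windows of 300 bases (250 before to 50 after the RefSeq start, build GRCm38.p6) were matched for 73 of the 86 genes. Cox6a2 was not matched, so it is in none of the motif shares below. The Cox6a1 window (chr5:115348909-115349208, minus strand) is shown as the general partner isoform of Cox6a2, and the Cox8a window (chr19:7217567-7217866, minus strand) as that of the largest rise in depleted cells. Ndufa9 (chr6:126849095-126849394, minus strand) and Atp5b (chr10:128083057-128083356, plus strand) are shown as genes with the RBPJ core in the window. Each is printed 5′ to 3′ on the gene's strand, and capitals mark the motifs described after them.
Cox6a1: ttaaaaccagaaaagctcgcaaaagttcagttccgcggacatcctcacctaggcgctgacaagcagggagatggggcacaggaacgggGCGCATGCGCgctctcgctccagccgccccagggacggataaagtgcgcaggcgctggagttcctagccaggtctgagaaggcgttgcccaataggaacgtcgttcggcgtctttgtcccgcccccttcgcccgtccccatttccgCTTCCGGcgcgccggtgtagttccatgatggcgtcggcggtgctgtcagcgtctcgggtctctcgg
Cox8a: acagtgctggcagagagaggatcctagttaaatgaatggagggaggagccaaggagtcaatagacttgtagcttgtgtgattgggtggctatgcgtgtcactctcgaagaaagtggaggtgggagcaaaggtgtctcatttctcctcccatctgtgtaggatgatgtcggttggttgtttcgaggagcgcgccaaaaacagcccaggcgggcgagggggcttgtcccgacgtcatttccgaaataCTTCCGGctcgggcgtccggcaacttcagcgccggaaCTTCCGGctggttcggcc
Ndufa9: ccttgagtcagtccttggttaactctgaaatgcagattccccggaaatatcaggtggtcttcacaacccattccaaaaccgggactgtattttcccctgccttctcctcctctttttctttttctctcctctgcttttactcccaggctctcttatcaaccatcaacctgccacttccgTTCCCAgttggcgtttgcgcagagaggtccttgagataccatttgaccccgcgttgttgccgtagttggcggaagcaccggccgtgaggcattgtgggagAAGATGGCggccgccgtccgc
Atp5b: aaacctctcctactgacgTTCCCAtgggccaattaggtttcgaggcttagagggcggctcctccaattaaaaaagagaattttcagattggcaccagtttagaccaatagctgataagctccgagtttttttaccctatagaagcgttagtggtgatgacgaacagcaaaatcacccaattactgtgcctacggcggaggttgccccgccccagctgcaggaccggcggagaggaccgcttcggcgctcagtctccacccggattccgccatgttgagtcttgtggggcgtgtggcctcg

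Motifs were searched as exact letters on both strands. The ETS core bound by GABPA (CCGGAAG) lay in 17 of the 73 windows (23.3%), against 9.93% of the 27025 genes with a window. The NRF1 core (GCATGCGC) lay in 12 (16.4%, against 3.05% of all), and the YY1 core (AAGATGGC) in 11 (15.1%, against 3.19%). The RBPJ core (TGGGAA) lay in 15 of 73 (20.5%), against 28.3% of all genes. In Cox6a1 the NRF1 core occurs on both strands in overlapping positions, 162 and 160 bases before the start, and the ETS core 16 bases before it. The Cox8a window holds the ETS core on the other strand 5 bases before and 32 bases after the start. In Ndufa9 the RBPJ core lies on the other strand 71 bases before the start and the YY1 core 29 bases after it, and in Atp5b the RBPJ core lies on the other strand 232 bases before the start. The median GC content of the windows was 58.5% in the family and 52.8% over all genes. These matches are descriptions of letters and were tested for no function.

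Cox6a2, the heart and muscle isoform of a small subunit of complex IV, passed the test in 6 of the 14 comparisons, and no other gene of the family passed in more than 3. It was lower in RBPJ-depleted cells, lower with BioNICD1, and higher with GSI. Most of the 6 come from the BioNICD1 experiment, whose comparisons share libraries. There, 21.7% of all genes rose and 20.3% fell for depletion with Biocontrol. The share of all genes that passed in 6 or more comparisons was not counted. The count therefore sets Cox6a2 apart only within the family. Levels are TMM-normalised CPM, and adjusted p-values are from edgeR's quasi-likelihood test with Benjamini-Hochberg adjustment over all genes tested.

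In the depletion experiment Cox6a2 was at 36.4 and 19.2 CPM in the control libraries, at 10.4 and 9.39 CPM in line 2-12, and at 5.64 and 6.04 CPM in line 2-14. Every depleted library lay below both controls. Cox6a2 fell by 1.82 ± 0.28 on the log2 scale (adjusted p = 0.0136), and by 1.76 ± 0.22 (adjusted p = 0.000536) with the replicate number as a block. The control libraries differed more from each other than the replicates of either line; without Control sgRbpj replicate 1 the change was -1.33 (adjusted p = 0.0437). The lines did not overlap, and line 2-12 minus line 2-14 gave 0.75 ± 0.36 on the log2 scale, with an adjusted p of 1.

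With GSI, Cox6a2 was at 53.3 and 52.3 CPM, against 26.8 and 21.4 CPM with DMSO. It rose by 1.14 ± 0.10 on the log2 scale (adjusted p = 9.31e-11). The GSI libraries differed by less than the sampling noise (chi-square per gene of 0.766). Whether they are separate samples is not known, and this p-value counts them as separate. GSI blocks the cleavage that releases NICD from Notch receptors. No other member of the family passed in this comparison. Of all genes, 9.16% rose and 11.6% fell with GSI.

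In Control sgRbpj cells, Cox6a2 was at 86.4, 78.7 and 95.8 CPM under Biocontrol and at 28.8, 32.5 and 34.3 CPM with BioNICD1. It fell by 1.45 ± 0.12 (adjusted p = 1.13e-06). In sgRbpj cells it was at 47.7, 45.1 and 44.8 CPM with Biocontrol and at 27.3, 30.4 and 36.4 CPM with BioNICD1. Depletion alone lowered it by 0.92 ± 0.11 (adjusted p = 4.48e-05; -0.91 without both libraries that stand apart), with no overlap between the groups.

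In depleted cells BioNICD1 still lowered Cox6a2, by 0.55 ± 0.12 (adjusted p = 0.0223). That call was lost when any 1 of 4 depleted libraries was left out, with values from -0.56 to -0.46 and adjusted p-values of 0.0513 to 0.106. Without both libraries that stand apart it was -0.48 (adjusted p = 0.0184). The response to BioNICD1 was smaller in depleted than in control cells: the difference of the log2 responses, depleted minus control, was 0.90 ± 0.16 (adjusted p = 0.00225; 0.98 and adjusted p = 0.000134 without both libraries). With BioNICD1 present, depleted and control cells differed by -0.02 ± 0.12 (adjusted p = 0.897), and their ranges overlapped.

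**Figure D1:**
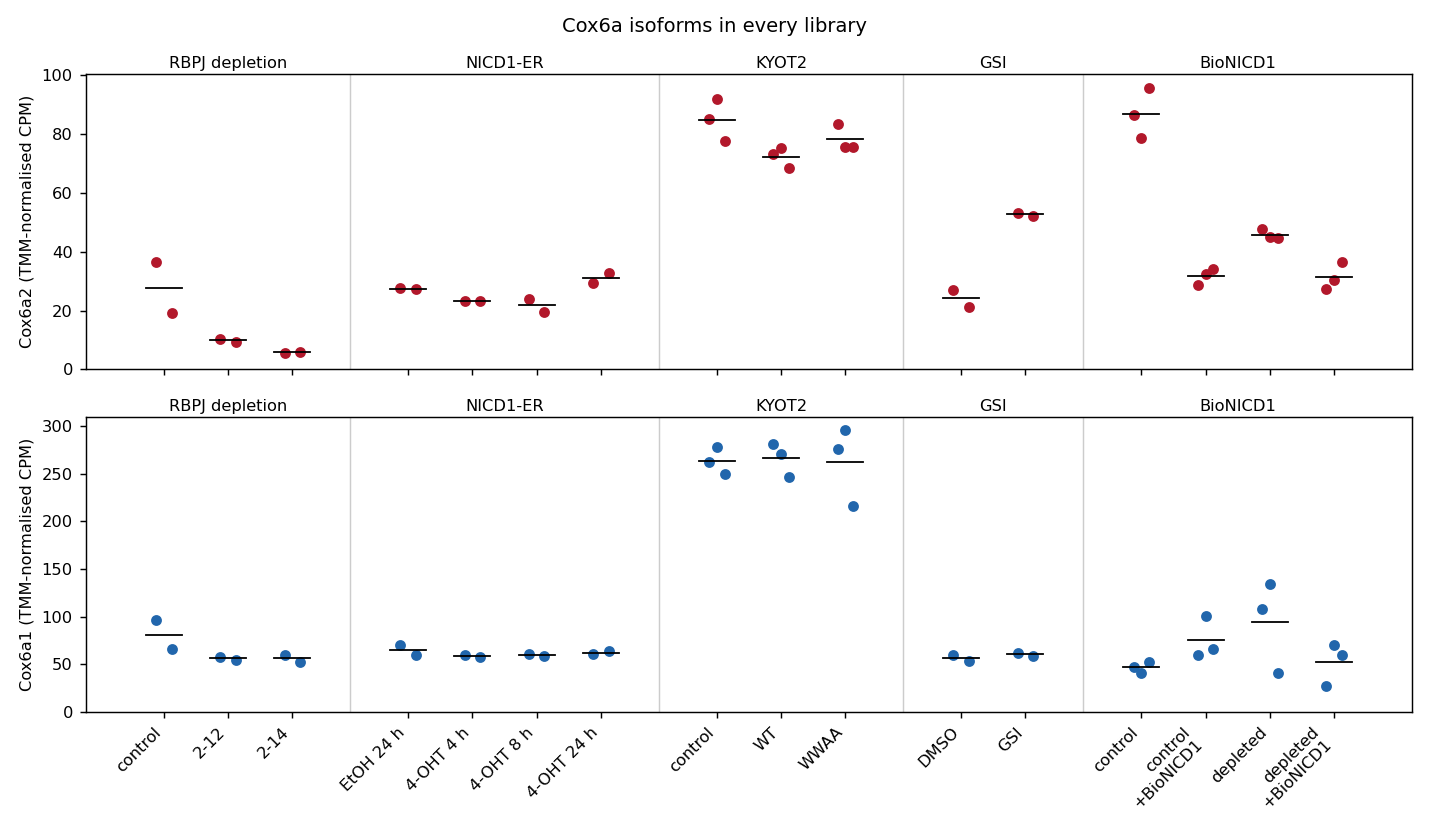
Level of Cox6a2 (upper panel) and Cox6a1 (lower panel) in TMM-normalised CPM, on linear axes from 0. Each point is 1 library (or 1 summed pair in NICD1-ER), bars are group means, and the experiments are separated by grey lines. Cox6a2 is low in the depleted lines and with BioNICD1 and high with GSI, while Cox6a1 is highest with KYOT2 and spreads widely between replicates of the depleted groups with BioNICD1 and Biocontrol.

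NICD1-ER and KYOT2 did not move Cox6a2 past the threshold. In the NICD1-ER experiment it was at 27.7 and 27.2 CPM with ethanol, 23.1 and 23.4 CPM after 4 h of 4-OHT, 24.1 and 19.5 CPM after 8 h, and 29.4 and 32.7 CPM after 24 h. The log2 changes were -0.24 ± 0.12, -0.29 ± 0.12 and 0.17 ± 0.12 (adjusted p = 0.297, 0.146 and 0.489), so the sign at 24 h differs from the earlier times. In the KYOT2 experiment Cox6a2 ran from 77.8 to 91.9 CPM with GFP, from 68.4 to 75.2 CPM with GFP-KYOT2 WT and from 75.6 to 83.4 CPM with WWAA. GFP-KYOT2 WT minus GFP was -0.23 ± 0.07 (adjusted p = 0.146), although every WT library lay below every GFP library.

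The general isoform Cox6a1 passed in none of the 14 comparisons. In the edited lines it was at 52.8 to 59.4 CPM against 96.5 and 65.5 CPM in the controls (-0.51 ± 0.17, adjusted p = 0.106), and with the replicate block it fell by 0.48 ± 0.11 (adjusted p = 0.0108). Cox6a1 was at 61.6 and 59.2 CPM with GSI against 59.6 and 53.0 CPM with DMSO, a difference of 0.11 ± 0.07 (adjusted p = 0.386). In Control sgRbpj cells Cox6a1 was higher with BioNICD1 in every library, by 0.69 ± 0.40 on the log2 scale, but did not pass (adjusted p = 0.203). Depletion with Biocontrol gave 1.02 ± 0.40 (adjusted p = 0.0564), with levels of 108, 134 and 40.9 CPM against 46.9, 41.2 and 52.4 CPM. The other muscle isoform kept, Cox7a1, passed in none of the 14 comparisons; with GSI it changed by 0.07 ± 0.13.

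In the RefSeq annotation the span of Cox6a2 overlaps that of Itgad, an integrin gene, and whether counting used strand is not given in the sources used here, so reads from the overlap could be given to either. Itgad held 0 to 2 counts per library in the depletion experiment, where Cox6a2 held 23 to 93. With GSI and DMSO it held 6 to 11 counts, against 134 to 280 for Cox6a2, and in the BioNICD1 experiment 7 to 30, against 229 to 776. Itgad fell with BioNICD1 in control cells by 1.06 ± 0.35 (adjusted p = 0.0340) and with depletion by 1.22 ± 0.36 (adjusted p = 0.0163). It rose by 1.46 ± 0.43 (adjusted p = 0.0387) after 24 h of 4-OHT. Whether both genes share control was not tested.

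As a family, the genes were lower in the depleted lines of the first experiment. Of 86, 82 lay below 0, with a median log2 change of -0.32 against -0.0045 over the 11566 genes tested. Only Cox6a2 passed the test without a block (0 up and 1 down, against 6.21% up and 3.68% down of all genes), and 40 of the 86 had an unadjusted p under 0.05, all lower, against 29.8% of all genes in either direction. Libraries with the same replicate number deviated together in this experiment, though the labels name no shared culture. With the number as a block 51 of 86 members fell and 0 rose, against 18.5% of all genes that fell.

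All 36 genes of complex I, 4 of complex II, 8 of complex III, 14 of complex IV and 15 of complex V were below 0 in that comparison, while 4 of the 9 assembly or coupling factors were above 0. With the block, 17 of 36 genes of complex I fell, 4 of 4 of complex II and 6 of 8 of complex III. So did 10 of 14 of complex IV and 12 of 15 of complex V, but 2 of 9 assembly or coupling factors. Of all genes 18.5% fell with the block. Without it 1 gene of complex IV fell (Cox6a2) and 0 of the others. Atp5b, the catalytic beta subunit of ATP synthase, was at 479 and 300 CPM in the controls, 302 and 259 CPM in line 2-12 and 296 and 246 CPM in line 2-14. Its change was -0.46 ± 0.10 with the block (adjusted p = 0.00721) and -0.49 ± 0.20 without it (adjusted p = 0.150).

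Uqcrfs1, the Rieske iron-sulfur protein of complex III, was at 127 and 106 CPM in the controls and at 87.1 to 88.4 CPM in the 4 depleted libraries. It changed by -0.39 ± 0.09 with the block (adjusted p = 0.00831) and by -0.40 ± 0.11 without it (adjusted p = 0.0640). Sdha, the flavoprotein of complex II, was at 354 and 264 CPM in the controls and at 230 to 259 CPM in the depleted libraries. Its blocked change was -0.32 ± 0.08 (adjusted p = 0.0161). Ndufs1, an iron-sulfur subunit of complex I, missed the threshold in both fits (-0.22 ± 0.08, adjusted p = 0.0524 with the block).

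The controls decide how large this shift is. The summed level of the 86 genes was 8175 and 6258 CPM in the controls, 5855 and 5510 CPM in line 2-12 and 5866 and 5411 CPM in line 2-14. Without Control sgRbpj replicate 1 the median change was -0.15 and 1 member passed, while without Control sgRbpj replicate 2 it was -0.54 and 41 passed. Cytosolic ribosomal protein genes, another family of short abundant transcripts, summed to 8457 and 5722 CPM in the controls and 4924 to 5759 CPM in the depleted libraries. Without the block their median change was -0.39, and 80 of 81 lay below 0. Of the 81, 0 rose and 1 fell, against 6.21% up and 3.68% down of all genes. The like count for the 86 genes is 0 up and 1 down, since the ribosomal genes were not counted with the block. Replicate 1 is also the shallowest library, and the part of depth in this shift was not tested. Between lines 2-12 and 2-14 no member passed in edgeR or DESeq2, while 0.484% of all genes passed. None had an unadjusted p under 0.05, against 4.55% of all genes. The median difference was 0.01.

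**Figure D2:**
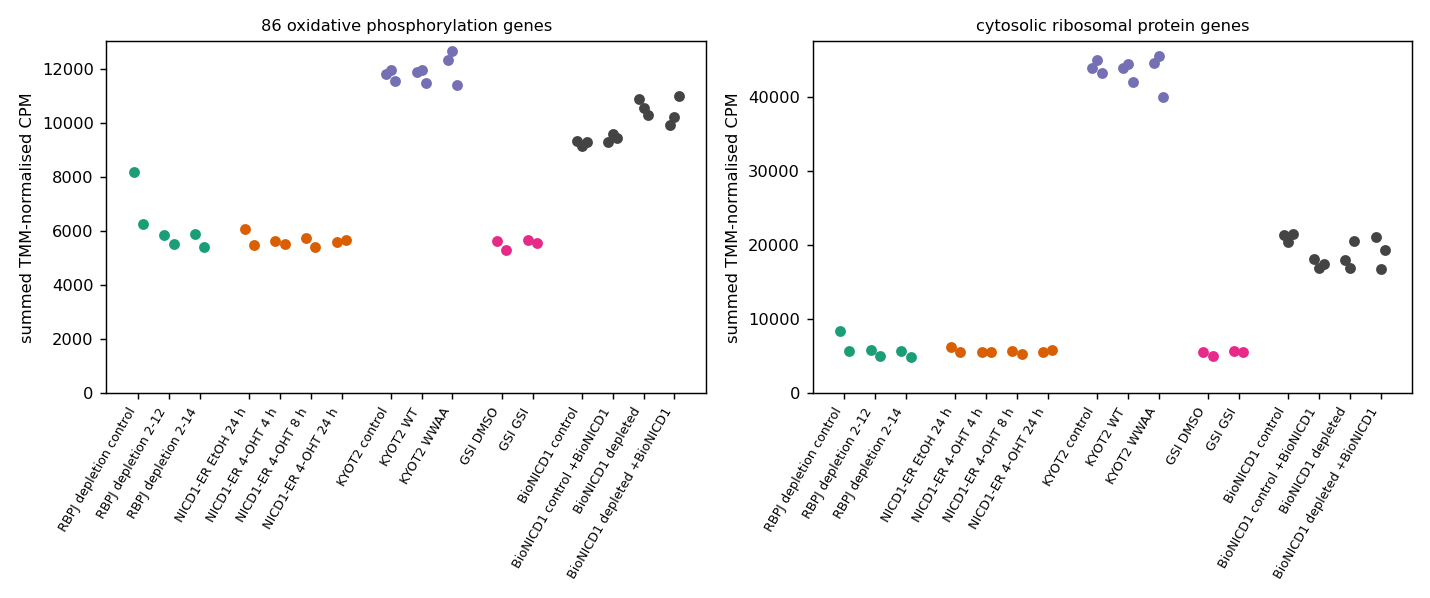
Summed TMM-normalised CPM of the 86 genes (left) and of the cytosolic ribosomal protein genes (right), 1 point per library or summed pair, colours mark the experiment, axes from 0. The first control library of the depletion experiment lies above the rest of its experiment in both panels, and the KYOT2 and BioNICD1 libraries lie above the other 3 experiments.

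In the BioNICD1 experiment RBPJ depletion gave the opposite sign for most of the family. With Biocontrol, depleted minus control cells had a median log2 change of 0.24 over the 86 genes, against 0.02 over all 11315 genes tested. Of the members 24 rose and 7 fell, while 21.7% of all genes rose and 20.3% fell. The summed level was 9145 to 9318 CPM in control cells and 10278 to 10873 CPM in depleted cells, with no overlap. Of the 86 genes, 60 were below 0 in the first depletion experiment and above 0 in this one. All 24 that rose here were below 0 there, but so were 82 of the whole 86, so this adds nothing particular to those genes. The experiments share no library, and the difference between them was not tested.

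**Figure D3:**
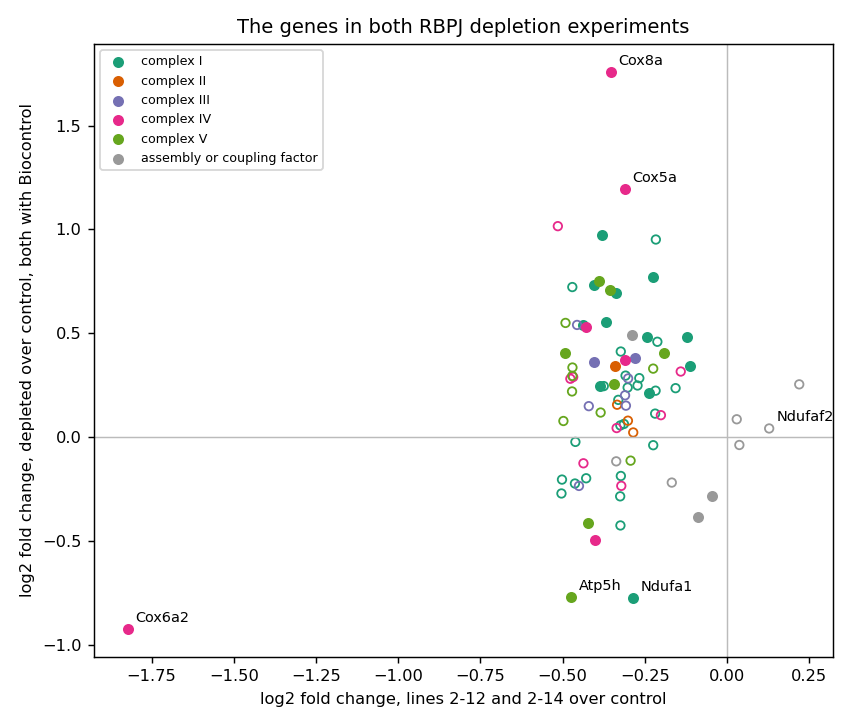
Log2 fold change of each of the 86 genes in the edited lines over control (horizontal) and in sgRbpj over Control sgRbpj cells, both with Biocontrol (vertical), coloured by complex. Filled points passed the test in the second experiment (24 up, 7 down); most genes lie left of 0 and above 0, and Cox6a2 is lowest on both axes.

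The largest rise was Cox8a, a small subunit of complex IV. Cox8a was at 19.1, 17.6 and 21.0 CPM in controls and at 66.4, 108 and 20.0 CPM in depleted cells, so that replicate 3 lay among the controls. It changed by 1.76 ± 0.55 (adjusted p = 0.0228; 2.18 without both libraries that stand apart, and lost on leaving out any 1 of 5 Biocontrol libraries, all but sgRbpj+Biocontrol replicate 3). Cox5a, another complex IV subunit, was at 9.25, 7.02 and 9.14 CPM in controls and at 20.5, 29.6 and 7.23 CPM in depleted cells (1.19 ± 0.43, adjusted p = 0.0406; 1.57 without both). Ndufb6 of complex I showed the same split, with 38.6, 46.3 and 18.8 CPM against 15.7 to 19.3 CPM (0.97 ± 0.32, adjusted p = 0.0284; 1.26 without both). Both calls were lost on leaving out any 1 of the same 5 libraries, and that of Cox5a also without Control sgRbpj+BioNICD1 WT replicate 3 (adjusted p = 0.0550).

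Ndufb7 of complex I rose in all 3 depleted libraries, to 87.7, 91.2 and 80.7 CPM from 47.6, 52.6 and 51.9 CPM (0.77 ± 0.15, adjusted p = 0.00120; 0.82 without both libraries that stand apart). With both libraries that stand apart included, the spread that these genes show in depleted cells is wider than in control cells. Of the 86 genes, 13 differed by over 2-fold between replicates of a depleted group (15.1%, against 6.71% of all genes tested) and 0 between replicates of a control group (against 0.336% of all). Ndufab1, the acyl carrier protein subunit, did not pass and ran from 41.5 to 131 CPM in depleted cells with Biocontrol and from 24.8 to 91.9 CPM with BioNICD1. Its lowest value in each group was that of the library that stands apart.

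The genes that fell with depletion were more even. Ndufa1, an accessory subunit needed to assemble complex I, was at 40.9, 40.6 and 34.95 CPM in controls and at 22.2, 25.2 and 20.6 CPM in depleted cells, and fell by 0.77 ± 0.13 (adjusted p = 0.000474). Atp5h, the d subunit of ATP synthase, was at 72.0, 72.1 and 70.0 CPM against 33.4, 40.3 and 52.3 CPM, and fell by 0.77 ± 0.15 (adjusted p = 0.00118). Cox7a2l, which joins complexes III and IV into supercomplexes, was at 111, 106 and 107 CPM against 77.0, 71.9 and 81.5 CPM, and fell by 0.49 ± 0.09 (adjusted p = 0.000580). Without both libraries that stand apart the changes of Ndufa1, Atp5h and Cox7a2l were -0.71, -0.95 and -0.54. In the first depletion experiment these genes also lay below 0. With the block, Cox7a2l at -0.39 ± 0.09 (adjusted p = 0.00869) and Atp5h at -0.45 ± 0.12 (adjusted p = 0.0198) passed. Ndufa1 at -0.26 ± 0.15 (adjusted p = 0.187) did not. Of the whole 86, 82 lay below 0 there without the block. With it 51 fell, against 18.5% of all genes, so this adds nothing particular to these genes.

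With BioNICD1 present, depleted minus control cells gave 12 members up and 6 down, against 18.5% and 21.4% of all genes, and a median of 0.01. This comparison shares its cell lines, but no library, with the one before. Ndufaf2, an assembly factor of complex I, rose by 0.99 ± 0.25 (adjusted p = 0.00796), from 16.7, 11.5 and 12.2 CPM to 36.7, 20.6 and 23.3 CPM. Ndufa12, Ndufb10 and Ndufaf6, also of complex I and its assembly, rose by 0.58 ± 0.19, 0.53 ± 0.12 and 0.50 ± 0.16 (adjusted p = 0.0285, 0.00336 and 0.0236). Ndufa1 fell again, by 0.76 ± 0.13 (adjusted p = 0.000547), with 38.0, 45.6 and 43.6 CPM in control and 21.1, 25.2 and 28.9 CPM in depleted cells.

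Ndufb11 and Ndufa6, accessory subunits of complex I, fell by 0.77 ± 0.24 and 0.55 ± 0.12 (adjusted p = 0.0239 and 0.00328). Cox5b of complex IV fell by 0.72 ± 0.27 (adjusted p = 0.0497). These 4 of the 12 that rose and 4 of the 6 that fell also passed without both libraries that stand apart, where Ndufb11 was at -0.48 and Ndufaf2 at 0.71. Leaving out single libraries ended the call of Cox5b in 9 fits, of Ndufa12 and Ndufaf6 in 3 each and of Ndufb11 in 2.

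BioNICD1 in Control sgRbpj cells raised 4 members and lowered 2, against 18.7% of all genes that rose and 14.2% that fell, so the share of the family that passed lay below that of all genes. Sdhd, a membrane anchor of complex II, was at 85.8, 88.7 and 91.5 CPM with Biocontrol and at 111, 119 and 116 CPM with BioNICD1, and rose by 0.38 ± 0.08 (adjusted p = 0.00315). Atp5g3, a gene for the c subunit of ATP synthase, went from 52.5, 57.1 and 58.3 CPM to 79.0, 111 and 97.0 CPM (0.78 ± 0.26, adjusted p = 0.0355). The complex I genes Ndufa8 and Ndufa3 rose by 0.65 ± 0.23 and 0.64 ± 0.17 (adjusted p = 0.0437 and 0.0104). The calls of Atp5g3, Ndufa8 and Ndufa3 were each lost on leaving out single libraries (5, 7 and 2 of them). Ndufa9, a complex I subunit at the base of the matrix arm, was at 121, 117 and 131 CPM and then at 93.6, 92.7 and 104 CPM, and fell by 0.35 ± 0.11 (adjusted p = 0.0256), a call lost without any 1 of 4 libraries. Without both depleted libraries that stand apart, Sdhd, Atp5g3, Ndufa8, Ndufa3 and Ndufa9 were at 0.38, 0.77, 0.64, 0.63 and -0.35.

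In depleted cells, Cox6a2 was the only member that BioNICD1 moved (0 up and 1 down, against 2.7% and 1.45% of all genes); 7 of 86 had an unadjusted p under 0.05, against 20.4% of all genes, and DESeq2 also called 1. The response to BioNICD1 differed between depleted and control cells for 6 members, 3 with a positive and 3 with a negative difference, against 9.17% and 13.3% of all genes. Besides Cox6a2 these were Atp5h (0.62 ± 0.21, adjusted p = 0.0486), Ndufs1 (0.50 ± 0.14, adjusted p = 0.0291), Sdhd (-0.35 ± 0.11, adjusted p = 0.0445), Ndufa3 (-0.80 ± 0.23, adjusted p = 0.0273) and Cox8a (-2.39 ± 0.77, adjusted p = 0.0424). Without both libraries that stand apart they were at 0.76, 0.46, -0.34, -0.79 and -2.40 in that order. Ndufs1 was at 241, 240 and 225 CPM in control cells and 215, 195 and 194 CPM with BioNICD1, but at 232, 210 and 245 CPM in depleted cells and 312, 266 and 251 CPM with BioNICD1. The 5 comparisons of this experiment share libraries and therefore chance values.

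Without both libraries that stand apart, more genes passed, in the family and overall. The members called went from 31 to 56 for depletion with Biocontrol (58.8% of all genes) and from 18 to 30 for depletion with BioNICD1 (45.3%). They went from 6 to 35 for BioNICD1 in control cells (51.4%), from 1 to 12 for BioNICD1 in depleted cells (11.2%) and from 6 to 30 for the difference of the responses (40.7%). In the same order, the medians went from 0.24, 0.01, 0.10, -0.07 and -0.12 to 0.26, 0.08, 0.09, -0.02 and -0.08.

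**Figure D4:**
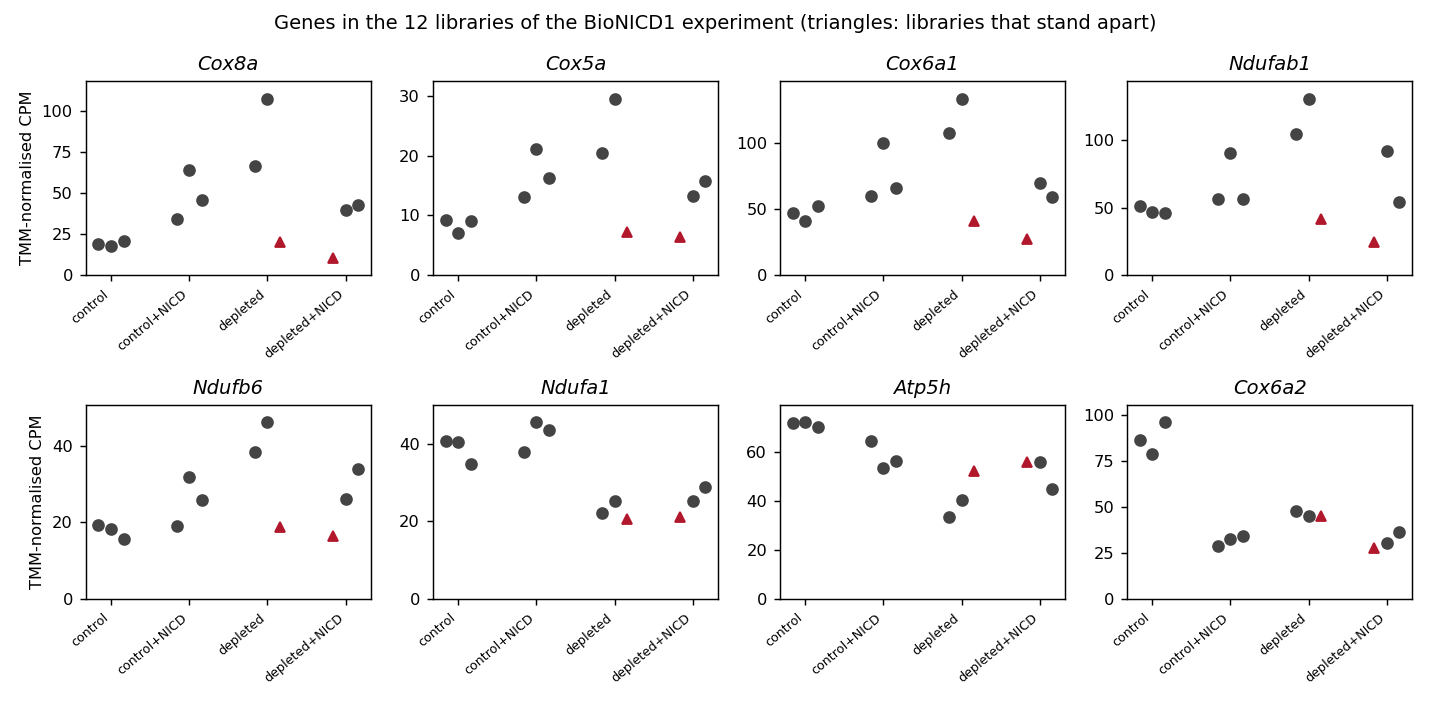
TMM-normalised CPM of 8 genes in the 12 libraries of the BioNICD1 experiment, by group, axes from 0; red triangles mark sgRbpj+Biocontrol replicate 3 and sgRbpj+BioNICD1 WT replicate 1. In Cox8a, Cox5a, Cox6a1, Ndufab1 and Ndufb6 the triangles lie below the other depleted libraries, while in Ndufa1 and Cox6a2 they lie close to them.

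The family moved little with NICD1-ER, KYOT2 or GSI. After 4 h of 4-OHT no member passed, in edgeR or DESeq2, while 6.25% of all genes passed. None had an unadjusted p under 0.05, against 18.7% of all genes. After 8 h no member passed in either tool, while 10.4% of all genes passed. An unadjusted p under 0.05 was seen in 2 members, against 23.6% of all genes. After 24 h Ndufa11, a membrane-arm subunit of complex I, rose by 0.30 ± 0.09 (adjusted p = 0.0339), and none fell, against 6.59% of all genes up and 4.22% down. Ndufa11 was at 43.4 and 39.3 CPM with ethanol and at 50.7 and 50.8 CPM after 24 h, but DESeq2 did not call it (adjusted p = 0.418) and it was lost without either 24 h 4-OHT library or ethanol replicate 3. The median change of the family was -0.05, -0.05 and -0.04 at the 3 times, and 0.03, 0.03 and 0.04 without ethanol replicate 2. Ethanol was sampled at 24 h only, so time and treatment cannot be told apart at 4 and 8 h.

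No member passed with KYOT2 in edgeR or DESeq2. Of all genes 0.888% passed for GFP-KYOT2 WT minus GFP, 0.0897% for WWAA minus GFP and 1.87% for WT minus WWAA. The family medians were -0.01, 0.02 and -0.03. At an unadjusted p under 0.05 there were 5, 4 and 10 of the 86 members, against 12.6%, 8.26% and 13.6% of all genes. Ndufs4, a complex I subunit, came closest, at 0.27 for WT minus GFP (adjusted p = 0.0631). With GSI, 1 member rose (Cox6a2) and 0 fell. The other members ran from -0.25 (Ndufaf6) to 0.26 (Ndufs6), none past the threshold, and the median over all 86 was 0.05 (-0.0035 without DMSO replicate 2).

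**Figure D5:**
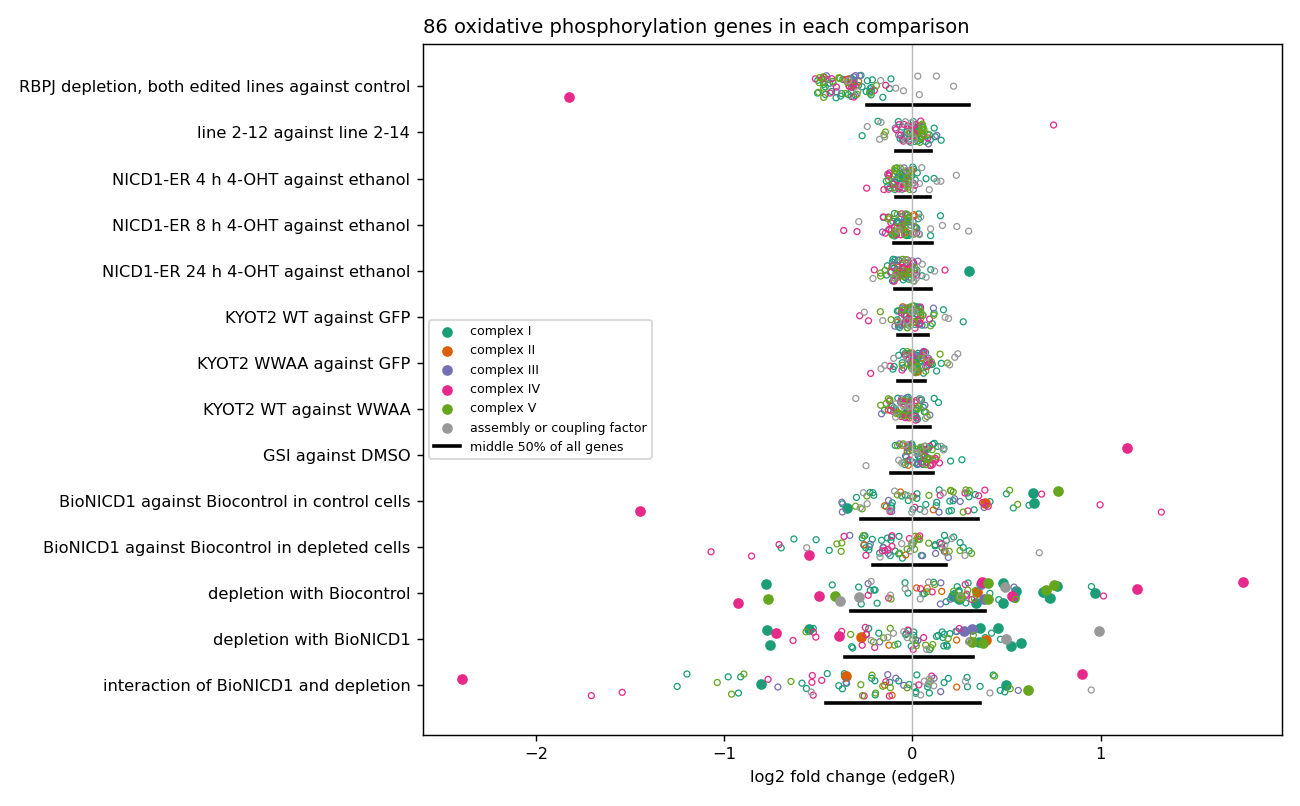
Log2 fold change of the 86 genes (points, coloured by complex; filled where adjusted p was under 0.05) in each of the 14 comparisons, with the middle 50% of all genes tested as a black bar. The family lies left of 0 in the first depletion experiment and near 0 with NICD1-ER, KYOT2 and GSI; it is widest in the BioNICD1 experiment.

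Levels of some members differed widely between experiments; the genes named here were chosen after their values were seen, and values are plain CPM. The 86 genes took 0.524 to 0.766% of the counts in the depletion, NICD1-ER and GSI experiments, 0.822 to 1.16% in the BioNICD1 experiment and 1.14 to 1.25% with KYOT2. Atp5g2, 1 of 3 genes for the c subunit, was at 1.12 to 3.38 CPM in the BioNICD1 libraries, against 38.6 to 80.1 CPM in all others. Ndufb3 of complex I was at 2.71 to 9.76 CPM there and at 27.9 to 46.6 CPM elsewhere, and Cox5a at 5.34 to 32.5 CPM there and 40.8 to 90.2 CPM elsewhere. Atp5k, the e subunit of ATP synthase, went the other way, with 116 to 397 CPM there against 17.3 to 72.0 CPM elsewhere.

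Ndufs1 varied least of the 86, from 169 to 272 CPM over all libraries, and Sdha ran from 190 to 332 CPM. Cytosolic ribosomal protein genes summed to 4924 to 8457 CPM in the depletion, NICD1-ER and GSI experiments, 16781 to 21537 CPM with BioNICD1 and 40082 to 45559 CPM with KYOT2. Rn45s, the ribosomal RNA precursor, took 1.81 to 5.56% of counts with KYOT2 and at most 0.263% elsewhere. The labels name a Ribo-Zero total RNA kit or others without saying which libraries used which, so kit and experiment cannot be told apart. Genes with close copies in the genome, such as Atp5g1 to Atp5g3, can share reads, and how the authors counted those is not given in the sources used here.

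Other mitochondrial gene lists were read beside the family. In the edited lines, fitted without the block, 0 of 40 assembly and maturation factors rose and 1 fell (median -0.08, 27 below 0). Of 18 genes of the TCA cycle and pyruvate dehydrogenase 0 passed (median -0.27, 17 below 0). Of 77 mitochondrial ribosomal protein genes 0 rose and 2 fell (median -0.20, 68 below 0). Those that fell were Cox18, Mrpl24 and Mrpl48. Of 16 regulators of mitochondrial biogenesis 1 rose (Pprc1), of 12 electron carrier genes 1 fell (Coq5), of 19 import genes 1 rose (Timm44), and of 10 genes of supercomplexes and inner membrane shape 1 fell (Chchd6). Of all genes 6.21% rose and 3.68% fell in the edited lines. With Biocontrol in the other experiment, depletion raised 9 of the 40 assembly factors, 7 of 18 TCA genes, 23 of 77 mitochondrial ribosomal genes, 3 of 12 electron carriers and 3 of 19 import genes. It lowered 1, 2, 4, 0 and 2 of them. Of the regulators 2 rose and 2 fell, and of the supercomplex and shape genes 3 rose and 2 fell. Of all genes 21.7% rose and 20.3% fell in this comparison. With GSI 0 of the 40 assembly factors and 0 of the 77 mitochondrial ribosomal genes rose, while 1 (Lyrm7) and 3 fell, and of the 16 regulators 1 rose (Ppargc1b) and 5 fell. Of all genes 9.16% rose and 11.6% fell there.

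Chchd6, Mrpl24 and Pprc1 passed in the same direction in both depletion experiments. They were picked from the named genes of these lists, and the share of all genes that did so was not counted. Singly, 6.21% of all genes rose and 3.68% fell in the first experiment, and 21.7% and 20.3% in the second. Chchd6, a subunit of the MICOS complex that shapes the cristae holding the respiratory chain, was at 13.9 and 16.1 CPM in the control line, 2.67 and 2.05 CPM in line 2-12 and 0.736 and 0.654 CPM in line 2-14. It fell by 3.55 ± 0.29 (adjusted p = 0.00130), and in the BioNICD1 experiment by 1.21 ± 0.25 (adjusted p = 0.00192), from 4.18, 4.37 and 4.20 CPM to 1.98, 1.92 and 1.57 CPM. Mrpl24, a protein of the large mitochondrial ribosomal subunit, fell by 0.82 ± 0.12 (adjusted p = 0.0114) and by 1.36 ± 0.10 (adjusted p = 6.00e-07). Pprc1, a PGC-1 family coactivator of genes of the respiratory chain, rose by 0.67 ± 0.15 (adjusted p = 0.0405) and by 0.48 ± 0.09 (adjusted p = 0.00114). Its levels went from 48.9 and 65.9 CPM to 83.5 to 99.8 CPM, and from 98.0 to 105 CPM to 135 to 153 CPM.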

How the data were processed

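RNA was sequenced in 41 libraries that match a labelled sample; 24 of the 65 columns of the deposited table were not used. The authors deposited raw read counts per gene symbol, whole numbers that per the labels come from mouse cells. TopHat2 2.1.1 and the build mm9 are named in the submitters' processing notes; the counting tool is not given in the sources used here. Separate edgeR models (version 4.0.16, under R 4.3.3) were built per experiment, using filterByExpr, TMM scaling, 1 mean per group, two-sided quasi-likelihood F-tests and Benjamini-Hochberg adjustment over all genes tested, with a threshold of 0.05 and a prior count of 0.125. All 86 genes passed the filter in each experiment. Levels are TMM-normalised CPM. Alternatives were DESeq2 1.42.0, RLE factors, no filter, a replicate block, leaving out each library, and leaving out 2 libraries that stand apart (added after the data were seen).

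NICD1-ER replicates 1 and 2 at 4 h and at 8 h differed by less than the sampling noise (chi-square per gene of 0.907 and 0.835) and were counted as 1 sample. The 24 h 4-OHT libraries (0.928) and the GSI libraries (0.766) also came below 1; since their groups hold no other pair to compare with, they were kept as 2 samples each. Same-numbered libraries of the depletion experiment deviated together (r = 0.432 to 0.610; with 2 libraries per group these are 3 distinct values), so the block is given beside its results; the labels name no shared culture. Named genes are the 4 largest rises and falls among members that passed, and a set chosen by role; in the wider lists the 2 largest changes. The members, lists and rule were chosen with earlier results of these data known. Fits were also run on simulated counts, drawn independently for each library. The simulation held no effect of replicate number and no libraries that stand apart, so it does not cover those features. Region lists are in mm9 and the reference tables in GRCm38.p6, so RBPJ regions at these genes were not analysed here. RefSeq promoters were matched by symbol or synonym.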

Additional observations from a re-analysis of the deposited data

Results flagged for a closer look

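For 6 members the response to BioNICD1 differed between depleted and control cells by edgeR's test of the difference itself, given as the log2 response in depleted minus that in control cells. Cox6a2 differed by 0.9, with falls in both backgrounds and the smaller one in depleted cells. Atp5h differed by 0.617 and Ndufs1 by 0.496. Sdhd differed by -0.354 and Ndufa3 by -0.804. Cox8a differed by -2.39, and its depleted replicates ran from 20.0 to 108 CPM with Biocontrol and from 10.1 to 42.6 CPM with BioNICD1. The adjusted p of Cox6a2 reached at most 0.0081 over 17 alternatives, while Sdhd was lost in 12 of 17, Atp5h in 11, Ndufs1 and Cox8a in 7 each and Ndufa3 in 4.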

How the results depend on the processing

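The members called moved by over 1.5 times as follows. For RBPJ depletion 15 were called with no filter and 51 with the replicate block, against 1. For 8 h of 4-OHT the block with each library as its own sample gave 3, against 0, and for 24 h DESeq2 gave 0, against 1. For GFP-KYOT2 WT against GFP no filter and the block gave 2 each, and for WT against WWAA 1 each, against 0. For the difference of the BioNICD1 responses DESeq2 gave 15 and no filter 11, against 6. Without both depleted libraries that stand apart the counts were 35 (BioNICD1 in control cells), 12 (in depleted cells), 56 (depletion with Biocontrol), 30 (depletion with BioNICD1) and 30 (difference). The cause was not tested, except that these fits hold fewer libraries. Leaving out 1 library gave 1 to 41 for RBPJ depletion (41 without Control sgRbpj replicate 2), 0 to 1 at 24 h of 4-OHT, 0 to 1 for KYOT2 WT against GFP and against WWAA, and 1 to 4 with GSI (4 without DMSO replicate 1). It gave 2 to 16 for BioNICD1 in control cells, 0 to 9 in depleted cells, 11 to 41 for depletion with Biocontrol, 11 to 23 for depletion with BioNICD1 and 1 to 28 for the difference. The most came without sgRbpj+Biocontrol replicate 3 in 4 of these 5. Without sgRbpj+BioNICD1 WT replicate 1 there were 16 for BioNICD1 in control cells. The fewest came without Control sgRbpj+Biocontrol replicate 1 (2 for BioNICD1 in control cells, 1 for the difference) or replicate 2 (11 for depletion with Biocontrol), without sgRbpj+Biocontrol replicate 1 (0 for BioNICD1 in depleted cells) and without Control sgRbpj+BioNICD1 WT replicate 2 (11 for depletion with BioNICD1). A group left with 1 library is assumed to vary like the others. Outside the depletion experiment not every same-numbered pair had r over 0.1 (-0.452 to 0.550 with BioNICD1), so the block was not used there. All 9 KYOT2 pairs were positive (0.0379 to 0.407), a hint of shared numbers from the data, and the block gave Cox6a2 in KYOT2 WT against GFP an adjusted p of 0.0210, against 0.146. The block changed no count by over 1.5 times except those named. No called gene changed sign, but family medians near 0 did on leaving out 1 library: for NICD1-ER, KYOT2, GSI, the lines, BioNICD1 in depleted cells (0.0024 without sgRbpj+BioNICD1 WT replicate 1) and depletion with BioNICD1 (-0.09 without sgRbpj+BioNICD1 WT replicate 3). At 3 counts the level of a library is 0.211 to 1.26 CPM, below the mean over libraries of every gene kept.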
